A study of Mus musculus with 44 samples.

Results

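Regions of the mouse genome that carried a peak in every one of 8 ChIP-seq peak lists are described here. The lists cover 2 transcription factors, IRF3 and NF-kB, in bone marrow-derived macrophages of 2 genotypes with and without lipopolysaccharide (LPS). Intervals of the 8 lists that overlapped by 1 bp or more were joined into 5605 regions on the autosomes, X and Y. Of these, 360 regions (6.42%) held a peak from all 8 lists, and they are called the recurrent regions. The regions were chosen by the positions of the peaks in the same 8 lists, so presence in a list, rank, width and the deposited scores are given as descriptions without a test.

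The macrophages came from C57BL/6 mice that were wild type (WT) or lacked the DNA methyltransferase Dnmt3a (KO), and were grown from marrow with 30 ng/ml M-CSF in 10% serum. Chromatin came from untreated cells or from cells given 10 ng/ml LPS for 6 hours, on days 8 to 10 of culture, and was sheared to between 100 and 300 bp. Of the 44 samples in the series, 22 were precipitated for IRF3 or NF-kB and 4 were inputs, 1 per genotype and treatment. For IRF3 the merged samples number 3 (untreated WT), 2 (WT with LPS), 2 (untreated KO) and 3 (KO with LPS), and each of the 4 NF-kB lists merges 3 samples. The labels used here do not give the NF-kB subunit, the way Dnmt3a was deleted, or whether replicates came from separate animals, and a peak list cannot show the deletion. A merged list holds no spread between replicates, so no list was tested against another, and the 95% intervals below are exact Clopper-Pearson intervals that cover counting error only. The lists held 1169 (IRF3 WT untreated) to 3065 (NF-kB KO untreated) peaks. The p-values, q-values and signal values attached to peaks are the authors' own.

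LPS, a component of the outer membrane of Gram-negative bacteria, is sensed by Toll-like receptor 4 on macrophages. Signalling from that receptor releases NF-kB from its inhibitors in the cytoplasm, and a second branch phosphorylates IRF3. Both factors then enter the nucleus, where NF-kB binds kappa B elements near genes of cytokines and chemokines and IRF3 binds interferon-stimulated response elements near genes such as interferon beta. In unstimulated cells most of both factors is held outside the nucleus. Dnmt3a places methyl groups on previously unmethylated cytosines. A peak in ChIP-seq is a stretch where precipitated reads pile up over a background, and stretches of repeated sequence or with many near-identical copies are known to pile up reads in many unrelated experiments.

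No base sequence of a whole region was used here, but 3 of 32851 annotated start-site windows touched a recurrent region. These RefSeq windows (GRCm38.p6, the assembly called mm10) run from 250 bases before a start site to 50 bases after it, and they are shown because they give the bases of these regions that can be read. The long noncoding gene Gm36816 has its window at chr6:67008938-67009237 on the minus strand, inside the recurrent region chr6:67006612-67009647. That region lies within the span of Gng12, which encodes a G protein gamma subunit. All 300 bases of the window were covered by peaks of all 8 lists. Capitals mark its first 92 and last 92 bases.
Gm36816: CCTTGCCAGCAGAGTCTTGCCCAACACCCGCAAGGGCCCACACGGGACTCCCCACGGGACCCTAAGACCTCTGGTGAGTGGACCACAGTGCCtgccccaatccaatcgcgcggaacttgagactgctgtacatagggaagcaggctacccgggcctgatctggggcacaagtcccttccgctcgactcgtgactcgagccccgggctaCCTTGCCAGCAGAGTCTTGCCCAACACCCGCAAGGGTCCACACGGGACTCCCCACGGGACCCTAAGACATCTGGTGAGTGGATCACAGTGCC
The window repeats itself at an offset of 208 bases, where 89 of the 92 bases that can be compared (96.7%) are identical. It has a GC content of 63.0% and 15 CpG sites, against medians of 52.7% and 7 sites over all windows. A loose form of the kappa B element, GGG and CC with 5 bases of any kind between them, searched on both strands, starts at positions 44 and 252, once in each copy, and 50.8% of all windows hold it. The word CGCG occurs at positions 107 and 109, which overlap, and 38.0% of windows hold it. Neither a loose interferon-stimulated response element, GAAA and GAAA with 2 bases of any kind between them, nor TGANTCA, the core of an AP-1 element, is in the window. They occur in 3.44% and 7.81% of windows. Tandem copies of a short unit are known from the start of mouse L1 retrotransposons, but whether this window belongs to such an element was not tested, because no repeat annotation was used here.

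Peaks at the Gm36816 window were alike in every list. In the IRF3 lists the peak was 2746 bp (untreated WT), 2958 bp (WT with LPS), 2879 bp (untreated KO) and 2882 bp (KO with LPS) wide and ranked 126, 85, 36 and 60. In the NF-kB lists it was 2788, 2751, 2872 and 3005 bp wide, in the same order, and ranked 61, 41, 70 and 52. The deposited q-value was under 0.05 in all 8 lists, with the highest value, 0.0304, in the untreated WT list for IRF3. No list stood apart in width. Values of the 4 lists of a factor are given in this order throughout.

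The other two windows touch recurrent regions at their edges and share a run of 57 identical bases, marked in capitals. They belong to the long noncoding genes Gm33458 (chr2:56801255-56801554, minus strand) and Gm52195 (chr15:103410384-103410683, plus strand), on different chromosomes.
Gm33458: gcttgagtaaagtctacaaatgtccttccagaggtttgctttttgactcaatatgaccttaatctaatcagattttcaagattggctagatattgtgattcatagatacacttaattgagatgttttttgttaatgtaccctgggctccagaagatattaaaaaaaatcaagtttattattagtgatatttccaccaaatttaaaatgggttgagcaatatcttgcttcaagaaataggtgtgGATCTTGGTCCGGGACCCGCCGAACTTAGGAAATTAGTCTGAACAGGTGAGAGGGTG
Gm52195: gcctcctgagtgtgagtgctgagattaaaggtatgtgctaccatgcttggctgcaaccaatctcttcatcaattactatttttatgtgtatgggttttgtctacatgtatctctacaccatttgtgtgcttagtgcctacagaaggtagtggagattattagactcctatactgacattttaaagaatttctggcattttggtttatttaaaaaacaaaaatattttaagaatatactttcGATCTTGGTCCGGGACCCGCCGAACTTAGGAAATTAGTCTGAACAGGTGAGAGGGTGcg
Only these 2 of the 32851 windows hold the whole run. The recurrent region chr2:56798735-56801260 begins at base 52 of the run on the transcribed strand of Gm33458 and takes in 6 bases of the window. The recurrent region chr15:103410667-103412611, which also lies in Gtsf1, a gene of the piRNA pathway, begins at base 43 of the run and takes in 17 bases of the window. These are the outermost edges over the 8 lists. The edges of the single lists lay a median of 38.5 bp (0 to 351) further into the chr2 region and a median of 16 bp (0 to 43) further into the chr15 region, so peaks of many lists start past the run, and 0 bases of either window were covered by all 8 lists. The chr2 region was 2010 to 2483 bp wide in the single lists and ranked 28 to 198, and the chr15 region was 1685 to 1922 bp wide and ranked 25 to 479. Each had a q-value under 0.05 in 6 lists. Of the 38 words of 20 bases in the run, the window of Gm35240 on chromosome 12 holds 37 in the reverse direction, and that window touches no region of any list. Whether the chr2 and chr15 regions are copies of one element was not tested.

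Recurrent regions were more numerous than regions of exactly 4, 5, 6 or 7 lists. The number of regions in exactly 1 to 8 lists was 2765, 875, 523, 340, 262, 246, 234 and 360. Of the 234 regions in 7 lists, 86 lacked only the untreated WT list for IRF3, which is the shortest list with 1169 peaks. The remaining 148 lacked only IRF3 WT LPS (39 regions), IRF3 KO untreated (11), IRF3 KO LPS (33), NF-kB WT untreated (34), NF-kB WT LPS (3), NF-kB KO untreated (12) or NF-kB KO LPS (16). A region is easier to hold in a long list than in a short one, and the part of list length in these counts was not tested.

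Within the recurrent regions, the intervals called for 2 factors, 2 genotypes and 2 treatments were set side by side for shared bases and for position. Bases covered by all 8 lists made up a median of 63.9% of the joined region (quartiles 51.4% and 76.5%). In 264 recurrent regions every list held a single peak. Over the 8 lists the SD of the peak's start had a median of 147 bp, that of its end 125 bp and that of its midpoint 90.3 bp. A midpoint averages the start and the end, so its smaller SD is not read as a steadier middle. The distance between the outermost starts had a median of 436 bp and that between the outermost ends 373 bp. The joined regions had a median width of 2472 bp. For the 12 pairs of lists for 1 factor that differ in genotype or treatment, the median share of bases held in common ran from 84.5% to 91.1%. For the 12 pairs that differ in factor and also in genotype or treatment it ran from 84.2% to 90.4%. Overlap of all 8 lists is what chose the regions, so these shares are a description, and nothing is read from them about the factors. The 4 pairs of different factors in the same condition are left out, because the labels list only 1 input per condition.

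**Figure D1:**
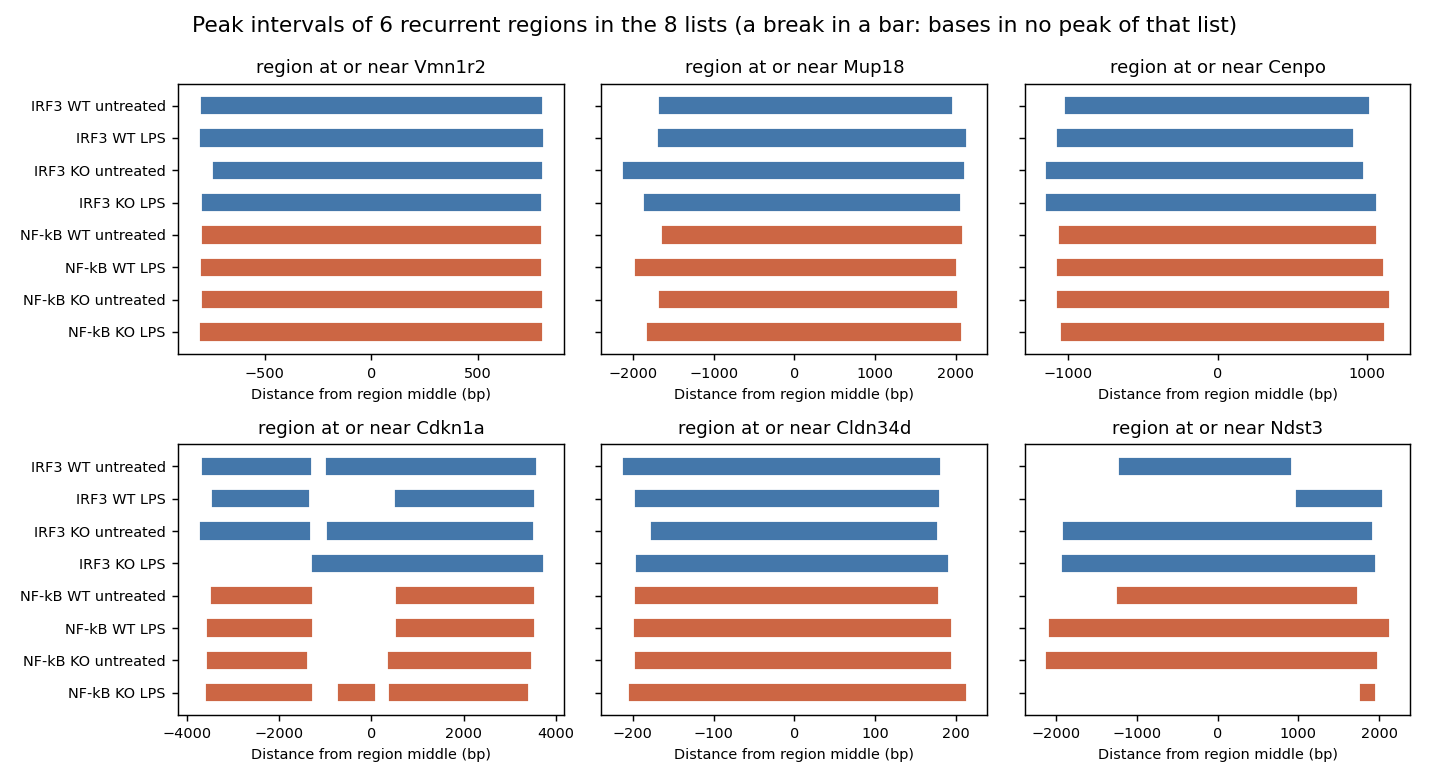
Intervals of the peaks (horizontal bars, blue for IRF3 and orange for NF-kB) in the 8 lists at 6 recurrent regions, plotted as distance in bp from the middle of the region. At Vmn1r2, Mup18, Cenpo and Cldn34d all 8 bars overlap over most of their length, at Cdkn1a most lists hold several pieces, and at Ndst3 the bars of 216 to 4228 bp share no base.

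The region at the head of most lists lay near the start of the assembled part of chromosome 4. At chr4:3089534-3091149, 80934 bp from the vomeronasal receptor gene Vmn1r2, the peak ranked first in 6 of the 8 lists. In the IRF3 lists its rank was 1, 12, 1 and 1, in the order given above, and in the NF-kB lists it was 1, 1, 2 and 1. Its width was 1609, 1614, 1552 and 1598 bp for IRF3 and 1598, 1606, 1604 and 1613 bp for NF-kB. The starts lay within 59 bp of each other and the ends within 7 bp. Only the IRF3 list of LPS-treated WT cells gave it a rank below the first 2, with a q-value of 0.00166.

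A wider region on chromosome 10 was the only one to rank within the first 4 in every list. It spans chr10:3109494-3117083, 2758 bp from the protein-coding gene 9230019H11Rik, and its peaks were 6946, 7046, 7090 and 7273 bp wide for IRF3 and 6910, 7408, 7546 and 7574 bp for NF-kB. The ranks were 4, 4, 3 and 3 for IRF3 and 2, 2, 4 and 2 for NF-kB. Its signal value was 7.96, 8.54, 8.99 and 9.67 in the IRF3 lists and 10.4, 14.0, 19.1 and 17.6 in the NF-kB lists. In the IRF3 lists and the WT NF-kB lists these values lay under the list's own median signal of peaks in recurrent regions, which was 13.8 to 16.7. In the KO NF-kB lists, with medians of 17.2 (untreated) and 17.4 (LPS), they lay above it. A high rank thus went without a high signal value in some lists only. A region on chromosome 8, chr8:20328516-20331545 near the predicted gene Gm15319, ranked 4 to 16 in all lists with widths of 2536 to 3017 bp. Its signal values ran from 12.3 to 25.3. They lay above the list's own median for recurrent regions in every list but the untreated WT list for IRF3.

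Cdkn1a, which encodes the cell cycle inhibitor p21, had a recurrent region 850 bp from its span, at chr17:29101572-29109047. It held 16 peaks, the most of any recurrent region. The right-hand piece was present in all 8 lists, 3036 to 5054 bp wide, at ranks 19, 5, 5 and 19 for IRF3 and 7, 49, 51 and 39 for NF-kB, and its q-values ran from 8.67e-05 to 0.00246. The left-hand piece of 2155 to 2435 bp was present in 7 lists, with ranks between 18 and 1925 and q-values from 0.00355 to 0.889. The IRF3 list of LPS-treated KO cells held only the right-hand piece, of 5054 bp. That peak started at 29103994, about where the left-hand pieces of the other lists ended (29103944 to 29104052). The NF-kB list of LPS-treated KO cells also held a middle piece of 835 bp, at rank 1601 with a q-value of 0.787. The pieces were thus unequal within the region, and the right-hand piece carried its high rank in every list. The 850 bp is measured from the left edge of the joined region. The right-hand piece started between 29103994 and 29105826, further from the gene.

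Other recurrent regions near the top had Mup18, Cenpo, Mageb5, Vmn2r129 or Sfi1 as their nearest protein-coding gene. Mup18 belongs to the major urinary protein genes, a cluster of near-identical copies, and the region 10174 bp from it (chr4:61684306-61688584) was 3665 to 4252 bp wide and ranked 11 to 61. The region in Cenpo, a gene for a centromere protein (chr12:4219446-4221755), was 1998 to 2240 bp wide and ranked 22 to 57. At chr11:3118913-3123084, 8766 bp from Sfi1, which encodes a centrosome protein and has many partial copies in the mouse genome, the starts agreed within 12 bp and the ends within 9 bp. Mageb5 (region chrX:91841055-91844459) and Vmn2r129 (region chr4:156340398-156343878) belong to large families, lay 58079 and 899 bp from their regions, and the regions had ranks of 6 to 64 and 4 to 70. At chr1:190300138-190304148 and chr10:27818452-27825704 no protein-coding gene lay within 100 kb, and ranks ran from 9 to 53 and from 6 to 51. Whether reads at these places map to single copies was not tested.

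Peaks in recurrent regions stood high in their lists, though not at the very top of every measure. The median rank of such a region's best peak, as a percentage of list length, was 19.9%, 17.8%, 14.9% and 13.9% in the IRF3 lists and 15.9%, 10.2%, 8.66% and 11.2% in the NF-kB lists. The worst-placed recurrent region stood at 89.9% or later in each list, and 211 of the 360 stayed under 50% in every list. In all, 295 were in the first 10% of at least 1 list, and 26 were in the first 10% of all 8 lists. Of the 100 peaks with the highest signal in a list, 70 to 81 lay in recurrent regions, yet the single highest lay outside them in 6 of 8 lists.

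**Figure D2:**
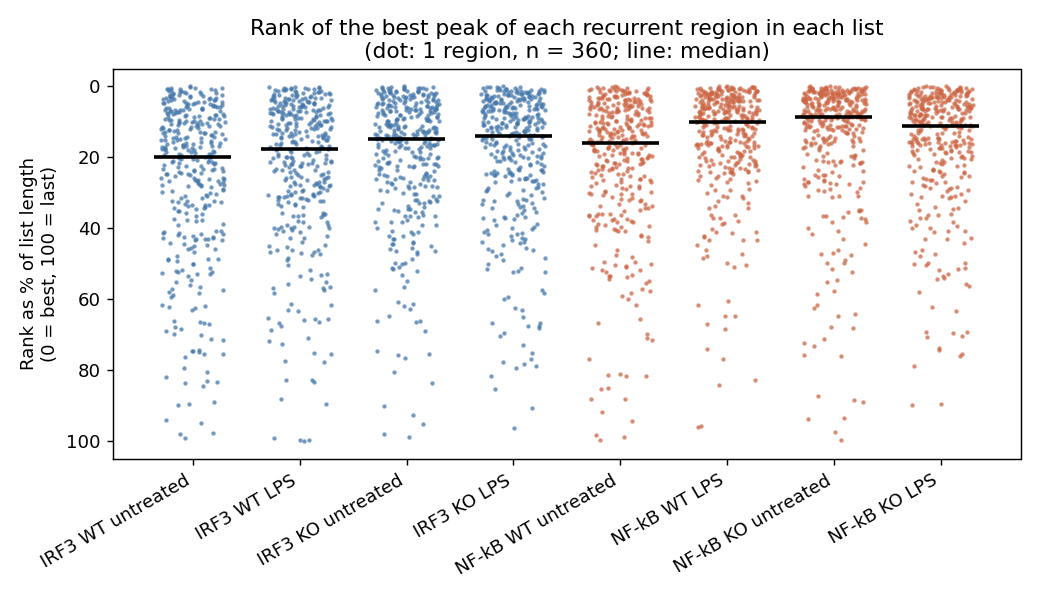
Rank of the best peak of each recurrent region (1 dot per region, n = 360) in each of the 8 lists, as a percentage of list length with 0 as the best. Black lines mark medians, from 8.66% in the untreated KO list for NF-kB to 19.9% in the untreated WT list for IRF3, and dots reach 89.9% or later in each list.

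Peaks with a q-value under 0.05 lay mostly in recurrent regions. In the IRF3 lists 148, 118, 92 and 116 (in the order used above) of the 360 recurrent regions held such a peak, against 15.7%, 9.97%, 6.68% and 7.98% of all peaks of those lists. For NF-kB the numbers were 111, 208, 238 and 160, against 13.2% or 13.8% of all peaks in the WT LPS and KO untreated lists and 9.23% and 9.55% in the WT untreated and KO LPS lists. Peaks from the same lists chose the regions, so nothing is read from this difference. Put the other way, recurrent regions held 81.0%, 83.8%, 81.6% and 81.1% of the IRF3 peaks with a q-value under 0.05. They held 83.0% of such peaks in the WT untreated NF-kB list and 63.3%, 56.6% and 70.5% in the other NF-kB lists, in the same order. The lists with the lowest of these shares, for NF-kB in LPS-treated WT and in untreated KO cells, were also the longest, with 2494 and 3065 peaks. The part of list length in these shares was not tested.

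**Figure D3:**
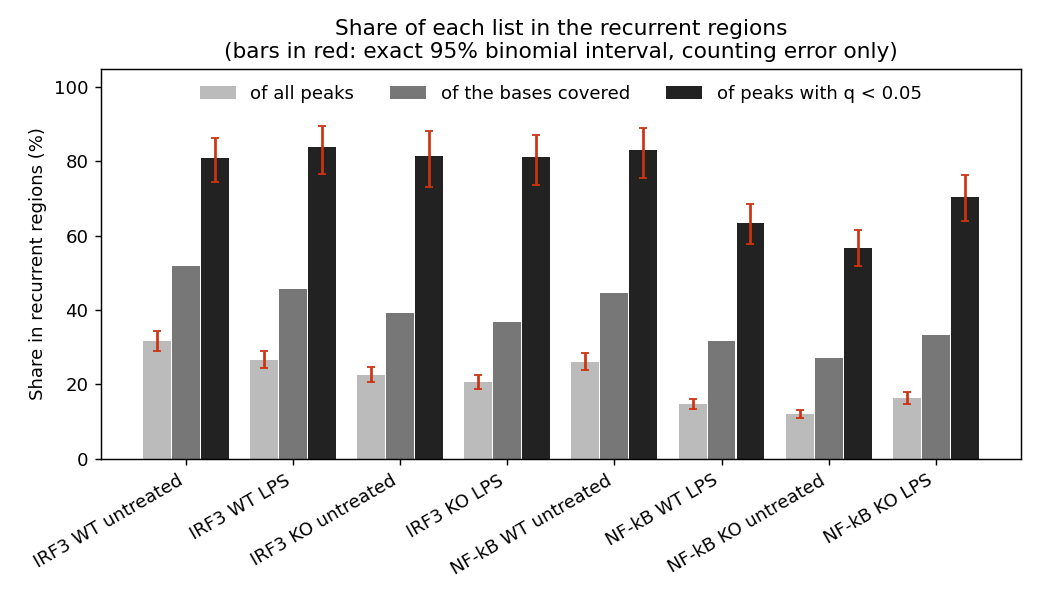
Percentage of each list that fell in recurrent regions, by all peaks (light bars), by bases covered (grey bars) and by peaks with a q-value under 0.05 (black bars), with exact 95% intervals in red on the first and the last. Recurrent regions took 12.01% to 31.7% of peaks, 27.2% to 51.7% of bases and 56.6% to 83.8% of peaks with a q-value under 0.05.

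A q-value under 0.05 in every list was found for 29 of the recurrent regions, and 45 had none in any list. Of the 29, 11 had no protein-coding gene within 100 kb and 5 overlapped one, against 136 and 87 of all 360 recurrent regions. Those 5 genes were Cenpo, Gng12, Dock2, Xpnpep1 and Fgf12. Dock2 encodes an activator of Rac in blood cells, Xpnpep1 an aminopeptidase and Fgf12 an intracellular member of the fibroblast growth factor family. The median joined width of all 29 regions was 3661 bp.

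Recurrent regions were wide, with a median joined width of 2472 bp and quartiles of 2035 and 3197 bp. Joining can only widen a region, so the widest single peak was taken as well, and its median was 2406 bp. Bases covered by all 8 lists had a median of 1556 bp per region. In the single lists the median width of peaks in recurrent regions was 1940 to 2211 bp, against 782 to 1042 bp for the other peaks. Peaks under 500 bp made up 1.09% to 5.68% of the former and 16.3% to 34.0% of the latter. A wide peak overlaps others more easily, and across all peaks of a list the Spearman correlation of width with rank was already 0.54 to 0.67, where a positive value means that wider peaks ranked better. The groups of peaks differ in width through the rule itself, to an extent that was not tested. With every interval cut to 500 bp around its midpoint, 337 regions held a peak from all 8 lists.

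**Figure D4:**
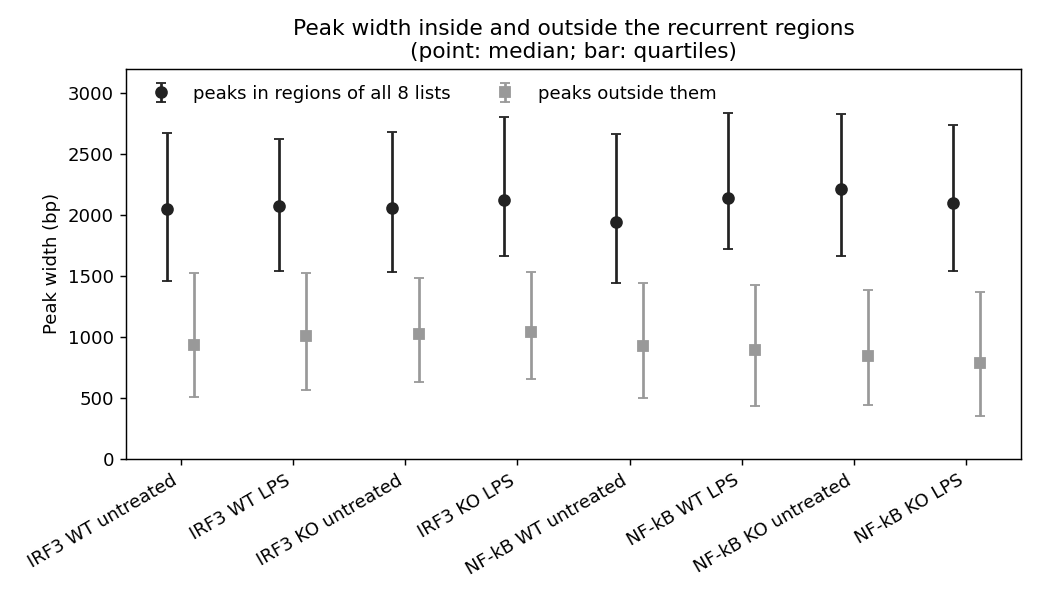
Median width in bp of peaks inside recurrent regions (dark circles) and outside them (light squares) in each of the 8 lists, with quartiles as bars. Medians inside lie between 1940 and 2211 bp and medians outside between 782 and 1042 bp in the lists of both factors.

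The extremes of width showed how unequal the regions were. The widest, chrX:126745985-126779113, 33349 bp from 4932411N23Rik, spanned 33129 bp. Its peaks covered 33115, 32930, 32859 and 32545 bp in the IRF3 lists and 32908, 32812, 32847 and 32346 bp in the NF-kB lists, so they were alike in extent, while the ranks ran from 3 to 631. At chr7:64465746-64496163, 5397 bp from Apba2, which encodes a neuronal adaptor protein, 6 lists covered 30074 to 30319 bp, the untreated WT list for NF-kB 24408 bp and the IRF3 list of LPS-treated KO cells 13269 bp. At chr17:3006068-3033952, 81020 bp from Scaf8, the untreated WT list for IRF3 covered only 2250 bp and the other lists 24856 to 27885 bp. Recurrent regions over 5000 bp numbered 33, and 6 were over 10000 bp.

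At the other end, 5 recurrent regions were under 1000 bp wide. The narrowest lay within the claudin gene Cldn34d, at chrX:76598636-76599061. Its peaks were 394, 378, 356 and 388 bp wide for IRF3 and 377, 394, 393 and 419 bp for NF-kB, and its signal values of 3.83 to 5.59 were low in all lists. Its ranks were 61, 435, 289 and 205 for IRF3 and 80, 76, 45 and 8 for NF-kB. Next came regions within Mdga2, which encodes a synaptic adhesion protein (551 bp), near the potassium channel gene Kcnh5 (569 bp), within the predicted gene Gm32584 (604 bp) and 714 bp from Crebzf, which encodes a leucine zipper transcription factor (897 bp). These narrow regions ranked in the first 100 in at least 1 list, with the exception of Gm32584, whose best rank was 146.

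Presence in all 8 lists did not mean a like rank in all. Near Lin28b, which encodes an RNA-binding repressor of let-7 microRNAs, the region chr10:45522115-45525962 ranked 100, 56, 1624 and 69 for IRF3 and 91, 78, 262 and 150 for NF-kB. Only the IRF3 list of untreated KO cells stood apart there, with a q-value of 0.911 against 0.0269 or less in the other lists, although the peak's width of 3359 bp was close to the 3465 to 3848 bp elsewhere. In Wapl, a gene for a cohesin release factor, the region ranked last of 1424 peaks in the IRF3 list of LPS-treated WT cells and 273 of 3065 in the untreated KO list for NF-kB. In Ndst3, which encodes a heparan sulfate-modifying enzyme, the peaks ran from 216 bp (NF-kB, KO LPS) to 4228 bp (NF-kB, WT LPS). Ndst3 is among 5 recurrent regions with no base covered by all 8 lists. The others were in Ust, Gsdmc and Zfp993 and at chr3:22417543-22421766.

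Regions just inside the rule had 1 peak per list and a peak near the end of at least 1 list. They lay near Olfr996, where the untreated KO list for NF-kB gave rank 3060 of 3065, and near Nus1, Olfr1325 and Magee2, within Etl4, and at chrX:97966289-97967680. Regions just outside were absent from 1 list and could rank very high in the other 7. At chr9:124256371-124257977 near Gm39469, the ranks in 7 lists were 3 to 17 and no peak overlapped in the untreated WT list for IRF3. The same list lacked the 7712 bp region at Tmem267 (chr13:119595679-119603390), which ranked 4 in the NF-kB list of LPS-treated KO cells and 558 in the IRF3 list of LPS-treated WT cells. These regions were taken for their high mean rank in 7 lists, so they do not describe all 234 regions of that class.

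Most recurrent regions lay between genes. Of the 360, 87 (24.2%, 95% interval 19.8% to 28.9%) overlapped the span of a protein-coding gene, against 30.3% of regions in 7 lists, 30.7% of regions in 2 to 6 lists and 29.6% of regions in 1 list. A further 136 (37.8%, 32.7% to 43.0%) had no protein-coding gene within 100 kb, against 30.3%, 32.1% and 30.1%. The median distance to the nearest gene span was 51557 bp for recurrent regions and 21504, 25405 and 22261 bp for the other classes. To the nearest start site, of any gene in the RefSeq table, it was 62833 bp for recurrent regions, 66436 bp for regions in 7 lists, 54283 bp for 2 to 6 lists and 52802 bp for 1 list. The start sites used include none on chromosome 18. Its 12 recurrent regions and its other regions therefore counted as far from any start site. A start site lay within 1 kb of 8 recurrent regions (2.22%), against 2.14% of regions in 7 lists, 1.65% in 2 to 6 lists and 1.59% in 1 list, and 1 recurrent region held one. The region holding a start site is that of Gm36816, whose sequence is shown above.

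The protein-coding genes overlapped were long, with a median span of 182 kb against 17.2 kb over all protein-coding genes. A long gene is easier to overlap than a short one, so the gap to all genes is not read as a trait of recurrent regions. Genes overlapped by regions in 7, 2 to 6 and 1 list had median spans of 119, 117 and 121 kb. The difference between these classes and the recurrent regions was not tested. Fhit, a long tumour suppressor gene at a common fragile site, and Ptprt, which encodes a receptor tyrosine phosphatase, each held 2 recurrent regions. Other long genes with 1 region included Il1rapl1, Agbl4, Cdh18 and Pcdh9, several of them best known from neurons.

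Genes of families with many copies were neighbours in every class of region. By its symbol, a nearest gene within 100 kb belonged to such a family or carried a Gm or Rik name for 69 recurrent regions (19.2%). The shares of regions in 7, 2 to 6 and 1 list were 16.2%, 16.7% and 22.9%. Gm and Rik names do not mark a family. Without them 41 recurrent regions (11.4%, 8.30% to 15.1%) were left, against 7.69%, 8.64% and 11.6% of those classes. Vomeronasal receptor genes, which encode pheromone receptors, were nearest to 12 recurrent regions (3.33%, 1.73% to 5.75%), and they make up 1.61% of protein-coding genes. Olfactory receptor genes were nearest to 8 (2.22%) and make up 5.07% of genes, and zinc finger protein genes were also nearest to 8 (2.22%) and make up 2.0%. Among regions in 7, 2 to 6 and 1 list, the vomeronasal shares were 1.28%, 1.56% and 1.59%, the olfactory shares 0.855%, 1.65% and 1.37% and the zinc finger shares 2.14%, 1.91% and 3.83%. Sfi1 was nearest to 2 recurrent regions (0.556%), against 0.427%, 0.935% and 0.506% of those classes. Mage genes were nearest to 4 (1.11%), against 0.855%, 0.178% and 0.289%. No test was made of these differences.

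Chromosome X carried 45 recurrent regions (12.5%, 9.27% to 16.4%), more than any other chromosome. It also carried 9.55% of regions in 1 to 7 lists, a share within that interval, and holds 4.41% of protein-coding genes. Chromosome 4 followed with 27 regions, and chromosome 19 had the fewest, 3. No region of any list lay on chromosome Y. The first 3.6 Mb of the chromosomes, which includes the start of the assembled sequence after the centromere, held 11 recurrent regions (3.06%, 1.53% to 5.40%), and the shares of regions in 7, 2 to 6 and 1 list there, 2.56%, 2.54% and 2.50%, lay within that interval. Among the 11 were the regions near Vmn1r2, 9230019H11Rik, Scaf8 and Sfi1.

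**Figure D5:**
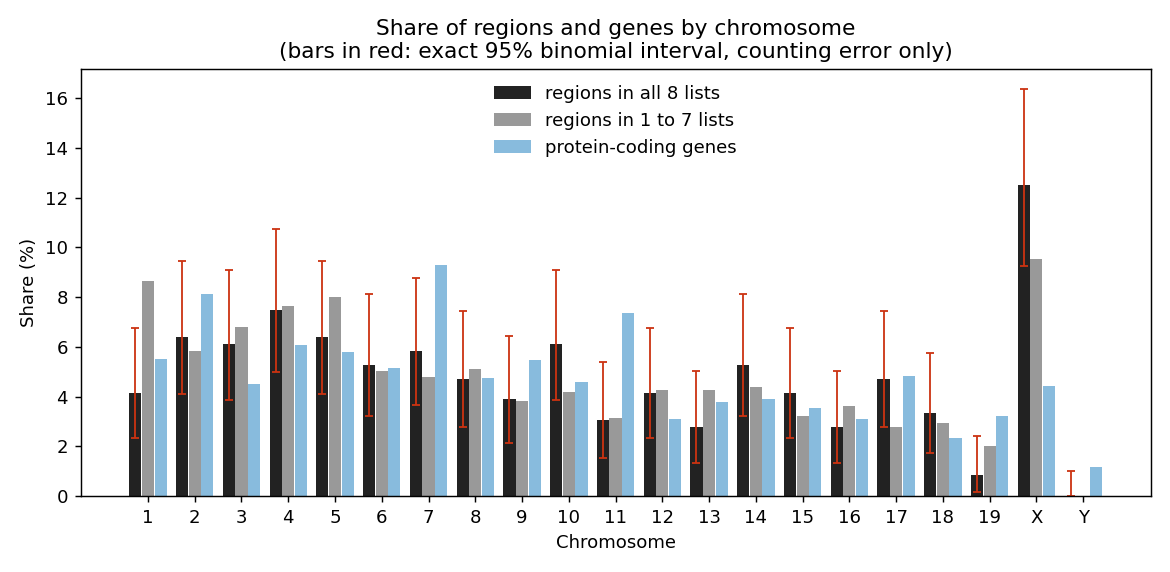
Percentage of recurrent regions (black bars, exact 95% interval in red), of regions in 1 to 7 lists (grey bars) and of protein-coding genes (blue bars) on each chromosome. Chromosome X holds 12.5% of recurrent regions, 9.55% of the other regions and 4.41% of genes, and chromosome Y holds no region.

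Some recurrent regions lay side by side. With gaps of up to 100 kb, 41 of them (11.4%) formed 20 runs, the largest of 3 regions at chr8:20660609-20706846 near Gm21119. Runs were counted among recurrent regions only, so this share has no background from the other classes. With gaps of up to 1 Mb there were 2 runs of 7 regions. One of these covered chr8:20069233-20706846, around Gm15319 and Gm21119, and the other covered chr4:145622446-147675741, a cluster of zinc finger genes that includes Zfp534, Zfp980, Zfp982, Zfp987, Zfp988 and Zfp993. Some zinc finger proteins of such clusters are known as repressors of retrotransposons.

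Genes of the LPS response were set beside the regions by distance. Of 52 NF-kB targets and feedback genes, 0 had a recurrent region within 10 kb and 17 had some region of the 5605. Of 47 interferon-stimulated genes, 0 had a recurrent region and 4 had some region. The counts were 0 and 4 of 28 Toll-like receptor and nucleic acid sensing genes, 0 and 2 of 17 antigen presentation genes, 0 and 1 of 24 DNA methylation and chromatin genes and 0 and 4 of 20 housekeeping genes. As only 6.42% of all regions were recurrent and housekeeping genes gave the same count of 0, nothing is read from the zeros, and no test was made.

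Among 30 macrophage identity genes, Fcgr1, which encodes a high-affinity receptor for antibodies, was the only one with a recurrent region within 10 kb. Some region of any class lay within 10 kb of 4 of the 30. That region, chr3:96270458-96273404, lay 9505 bp from Fcgr1 and only 266 bp from the histone gene H2bc18. Its peaks were 2733, 2147, 2247 and 2708 bp wide for IRF3 and 2607, 2648, 2494 and 2602 bp for NF-kB, at ranks of 254, 126, 196 and 90 and of 900, 247, 212 and 344. In all, 4 q-values were under 0.05, 2 for each factor.

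The nearest recurrent region to an NF-kB target lay in the chemokine cluster of chromosome 5. It spans chr5:90827301-90829869, 24234 bp from Cxcl15, 39208 bp from Cxcl3, 61376 bp from Cxcl1 and 74030 bp from Cxcl2, which encode neutrophil-attracting chemokines. Its peaks were 2328, 2317, 2488 and 2320 bp wide and ranked 95, 118, 108 and 114 for IRF3. In the NF-kB lists they were 2458, 2461, 2191 and 2297 bp wide and ranked 172, 253, 461 and 196. The q-values were 0.0225, 0.0432, 0.0448 and 0.0341 for IRF3 and 0.0651, 0.0281, 0.0634 and 0.0409 for NF-kB. All 8 lists held the region. The NF-kB q-values lay above 0.05 without LPS and below it with LPS. For IRF3 the q-value was higher with LPS in WT and lower with LPS in KO. These differences were not tested, and nothing is read from them. Within 100 kb, the remaining listed genes with a recurrent region were the interferon-stimulated genes Isg20 (79477 bp) and Trim30a (72458 bp). Some region of any class lay within 100 kb of 27 of the 52 NF-kB targets and feedback genes. The same held for 9 of the 47 interferon-stimulated genes.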

How the data were processed

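The analysis started from 8 deposited peak lists that each merge the replicates of a group, as the labels point every replicate to one list. Tools named in the submitters' processing notes include MACS2 2.1.1, HOMER 4.9, Picard 2.8.0, deepTools 3.5.0 and Trim Galore 0.4.5, without their roles, and mm10 is named as the build. Neither the aligner nor the depth, the merging of replicates or the peak threshold is stated in the sources used here. No list has a header line. The deposited columns hold a signal value, used as a score of unstated normalization, and the authors' p-value and q-value for each peak. The words chipr and optimal in the lists' names leave it possible that these values describe a combination of replicates by rank and not enrichment over input. They served only to rank and describe peaks within a list.

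Intervals overlapping by at least 1 bp were joined in Python 3.11.15 with pandas 2.3.3, numpy 2.4.6 and SciPy 1.17.1, and the joining was tested on simulated data. Ranks follow the deposited p-value, then signal, width and position. Where a list held several peaks in a region, its best-ranked peak gives the rank and q-value. Gene spans (21887 protein-coding genes) and start-site windows came from RefSeq tables for GRCm38.p6, and 0 per-sample columns were left unmapped. The start-site windows include none on chromosome 18. Regions to name were drawn from fixed sets. The sets were the 12 with the best worst rank, the 6 widest, the 6 narrowest and the 6 with the widest spread of rank. Further sets were 6 just inside and 6 just outside the rule, those within 10 kb of a listed gene and the largest runs. Some of the widest, of those with the widest spread of rank and of those just outside are not described. The start-site windows, the Cxcl15 region, the regions with no common base, the overlapped genes and those with a q-value under 0.05 in every list were named after their values were seen. The members, the lists of genes and families and the thresholds were chosen with earlier results of these data known. Read-level, ATAC-seq, bisulfite and input data were not analysed here.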

Additional observations from a re-analysis of the deposited data

How the results depend on the processing

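Alternatives were computed for 48 values. Of these, 18 stayed within 1.5 times the main count or within the interval and 30 moved, and 3 were chosen after seeing the data (joining of touching intervals, families without Gm and Rik names, and edges of all recurrent regions). The number of recurrent regions stayed at 360 with an overlap of 50 bp or joining across 100 bp, was 355 when a base common to all lists was required, 270 with lists cut to equal length and 315 on the autosomes. Leaving out each list in turn gave 363 to 445. It was 29 when only peaks with a q-value under 0.05 were used and 1 when only peaks under 500 bp were used. With every interval cut to 500 bp around its midpoint it was 337. The median width was 1556 bp over bases covered by all 8 lists. By bases, the share of each list in recurrent regions was 51.7%, 45.6%, 39.2% and 36.8% for IRF3 and 44.5%, 31.6%, 27.2% and 33.4% for NF-kB. By peaks with a q-value under 0.05 it was 81.0%, 83.8%, 81.6% and 81.1%, and 83.0%, 63.3%, 56.6% and 70.5%. At q-values under 0.01 and 0.1 in all lists, 5 and 49 regions were left in place of 29. Counting every gene biotype, 29.4% overlapped a gene. Listed genes with a recurrent region were 0 by overlap, 2 within 50 kb and 6 within 100 kb, against 1 within 10 kb. The share of neighbours in a family or with a Gm or Rik name was 8.33% within 10 kb and 23.9% at any distance. Without those names it was 11.4% within 100 kb. Regions in runs numbered 14 with gaps up to 10 kb and 131 with gaps up to 1 Mb. No paired analysis was possible because each deposited list merges its replicates, which also prevented leaving out a replicate. Base composition, repeats and motifs of the regions were not run, since no genome sequence was used here. Depth is not given, so no limit from depth could be set.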
